A study of Mus musculus with 4 samples.

Results

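Lysosomal hydrolase, membrane protein and sorting genes, together with the MiT/TFE transcription factors, were examined in total thymocytes of mice hypomorphic for Atg16l1. The 36 members were chosen by name, with earlier results of these data known. They are lysosome genes other than cathepsins and proton pump subunits, plus Tfeb, Tfe3 and Mitf. Of these, 35 had at least 1 probe set carrying their symbol alone, and Cd63 was not analysed here. Each gene was followed by its brightest probe set, and 34 members were bright enough to be tested, among 10232 tested genes of 18193 named on the array. Mitf was too dim to be tested.

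The series compared 2 hypomorph mice with 2 control mice, each 7 weeks old, with 1 Affymetrix array per animal. Hypomorph mice carry an Atg16l1 allele of reduced function, and the labels call the controls wild-type. The sources used here give neither the strain nor how the allele was made. Each group held 1 male and 1 female, but the labels do not say which array came from which sex. Total thymocytes are the unsorted cells of the thymus, mostly developing T cells with a few phagocytes and B cells.

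The lysosome is the acidic compartment in which autophagosomes, endosomes and phagosomes deliver their contents for digestion. Most of its soluble enzymes receive a mannose 6-phosphate tag in the Golgi apparatus, are carried onward by mannose 6-phosphate receptors and break down glycolipids, glycosaminoglycans, glycogen, proteins or lipids. TFEB, TFE3 and MITF are related transcription factors that can raise expression of many lysosomal and autophagy genes together by binding E-box elements near their start sites. ATG16L1 acts earlier, in the complex that joins LC3 family proteins to lipid as autophagosomes form.

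None of the 34 tested members differed between hypomorph and control thymocytes at an adjusted p under 0.05 in limma, which 0.0489% of tested genes did, and 4 members (11.8%) were higher at an unadjusted p under 0.05, where 18.3% of tested genes were. The median log2 change of the 34 tested members was 0.18, against 0.21 for all tested genes, so the members lay 0.03 below the array-wide median. The members' changes ran from -0.38 for Arsb to 0.72 for Asah1, with an interquartile range of 0.08 to 0.32, against 0.07 to 0.34 for all tested genes. The highest changes were those of Asah1, acid ceramidase, and Gla, alpha-galactosidase, and the lowest those of Arsb, arylsulfatase B, and Tfeb. M6pr, a mannose 6-phosphate receptor, had the smallest p.

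The arrays and the targeted gene were checked before these values were used. The deposited signals had medians of 38.4 and 27.4 for hypomorph animals, against 23.5 and 27.4 for control animals, so arrays were centred on a common median on the log2 scale. All levels below are centred log2 signals, and each change is hypomorph minus control. After centring, the median of the tested genes still stood 0.21 higher in the hypomorph group, so members are also placed above or below that median. Intervals and p-values carry this shift unless another scaling is named. So do statements that groups did not overlap: both hypomorph arrays were above both control arrays for 51.7% of tested genes. Atg16l1 had levels of 6.39 and 6.26 in hypomorph thymocytes and 7.81 and 7.99 in control thymocytes, and differed by -1.57 ± 0.18 on the log2 scale (SE, adjusted p 0.0142 in limma). That call was lost without control replicate 1 (adjusted p 0.0751) and without control replicate 2 (adjusted p 0.0893), at log2 changes of -1.66 and -1.48. With both Atg16l1 probe sets averaged, the log2 change was -0.57 (adjusted p 0.423). Markers of double-positive thymocytes, the main thymocyte stage, were bright: their 11 genes summed to 31400 and 34100 signal units in hypomorph thymocytes, against 28900 and 34200 in control thymocytes.

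The E-box core CACGTG was looked up in the promoter windows of the members, since it lies within the element that TFEB and its relatives bind. Windows ran from 250 bases before to 50 bases after each start site in RefSeq (GRCm38.p6) and were available for 33 members, Cd63 included. The motif is its own reverse complement, so 1 search covers both strands. It was present for 10 of the 33 members (30.3%), against 8.09% of 27025 genes with a window. The longer form TCACGTGA, which contains the core, was present for 4 members, Cln3, Gla, Igf2r and Mcoln1 (12.1%, against 1.12% of genes). Stretches upstream of the start site follow for 3 motif-bearing members with some of the highest changes (Gla, Mcoln1, Naglu) and 3 with changes near or below the array-wide median (Lamp1, Cln3, Gaa). Capitals mark the longer of the forms matched at each site. The stretches lie at chrX:134601174-134601252 (minus strand) for Gla, chr8:3500428-3500499 (plus) for Mcoln1, chr11:101070001-101070046 (plus) for Naglu, chr8:13159080-13159160 (plus) for Lamp1, chr7:126583332-126583405 (minus) for Cln3 and chr11:119267803-119267848 (plus) for Gaa.
Gla: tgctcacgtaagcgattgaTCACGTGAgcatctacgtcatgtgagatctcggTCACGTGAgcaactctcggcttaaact
Mcoln1: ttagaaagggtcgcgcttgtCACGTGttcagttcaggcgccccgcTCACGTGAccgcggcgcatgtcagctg
Naglu: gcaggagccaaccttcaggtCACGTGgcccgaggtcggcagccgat
Lamp1: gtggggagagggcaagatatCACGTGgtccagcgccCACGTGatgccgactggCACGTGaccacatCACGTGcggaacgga
Cln3: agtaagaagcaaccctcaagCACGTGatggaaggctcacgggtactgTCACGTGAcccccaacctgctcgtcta
Gaa: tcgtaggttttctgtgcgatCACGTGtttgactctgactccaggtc

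Changes of members with and without the motif are given side by side, and the difference was not tested. The 10 members with CACGTG in a window had a median log2 change of 0.09 (range -0.20 to 0.55), and 4 of them lay above the median of the tested genes. The 21 tested members with a window but no such motif had a median of 0.19 (range -0.38 to 0.37), with 8 above that median. Asah1, M6pr and Npc1, with no window here, had log2 changes of 0.72, 0.50 and 0.10. The highest changes among members with a window, those of Gla (0.55), Naglu (0.50) and Mcoln1 (0.43), belonged to members with the motif. Lamp1, with 4 copies in the stretch above, had a log2 change of 0.23, while Gla, Mcoln1, Cln3 and Igf2r, with 2 copies each, had log2 changes of 0.55, 0.43, 0.00 and -0.04. A motif match describes the letters of a window and shows no binding.

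The transcription factors were close to or below the array-wide median. Tfeb had levels of 5.36 and 4.82 in hypomorph thymocytes and 5.17 and 5.66 in control thymocytes, a log2 change of -0.33 ± 0.34 (SE, adjusted p 0.624). The groups overlapped, since hypomorph replicate 1 was brighter than control replicate 1. The log2 change was -0.06 without hypomorph replicate 2, -0.09 without control replicate 2, -0.60 without hypomorph replicate 1 and -0.58 without control replicate 1. Tfe3, an X-linked relative, had 5.999 and 6.27 in hypomorph thymocytes and 6.39 and 5.72 in control thymocytes, with both hypomorph values inside the control range (log2 change 0.08 ± 0.28, adjusted p 0.897). Mitf, best known from pigment cells and osteoclasts, was dim, with levels of 4.34 and 5.20 in hypomorph thymocytes and 4.79 and 5.01 in control thymocytes. Without the filter on dim probe sets its log2 change was -0.13 ± 0.46 (adjusted p 0.942). The spread of these 3 genes leaves changes of some size undetectable: the 95% interval of the Tfeb fold was 0.473 to 1.34.

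The receptors that carry enzymes to the lysosome differed in their values. M6pr, the cation-dependent mannose 6-phosphate receptor, had levels of 10.002 and 10.06 in hypomorph thymocytes and 9.39 and 9.67 in control thymocytes. Both hypomorph arrays were above both control arrays, with a log2 change of 0.50 ± 0.14 (SE), a fold of 1.41 (95% interval 1.14 to 1.75), and the smallest p of any member in limma (unadjusted p 0.00447, adjusted p 0.229). Its other probe set was at 0.35 (unadjusted p 0.0553), also without overlap. With arrays centred on the tested probe sets, the fold of M6pr was 1.25 (95% interval 1.04 to 1.51). Igf2r, the cation-independent receptor, which also takes up IGF2 for degradation, had 8.50 and 8.25 in hypomorph thymocytes and 8.31 and 8.52 in control thymocytes, with overlap (log2 change -0.04 ± 0.16, adjusted p 0.911). Its other probe set was at -0.0027.

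A ratio between these receptors within an array is not moved by centring. The log2 signal of M6pr minus that of Igf2r was 1.497 and 1.80 in hypomorph animals, against 1.08 and 1.15 in control animals, a difference of 0.54. The groups did not overlap, and the exact permutation p, two-sided, was 0.333, the smallest that 2 arrays against 2 can give. This pair was chosen after its values were seen. The ratio used the brightest probe set of each gene, and on the other probe set of each gene the groups overlapped. Signals of those other probe sets in hypomorph animals were 645.1 and 437.4 for M6pr and 283.8 and 110 for Igf2r. In control animals they were 265.2 and 412.7 for M6pr and 94.24 and 209.7 for Igf2r. Gnptab, which encodes subunits of the enzyme that begins the mannose 6-phosphate tag, had a log2 change of 0.27 ± 0.16 (adjusted p 0.394) on its brightest probe set, where the groups did not overlap, and -0.02 and 0.04 on its other probe sets, where they did.

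**Figure D1:**
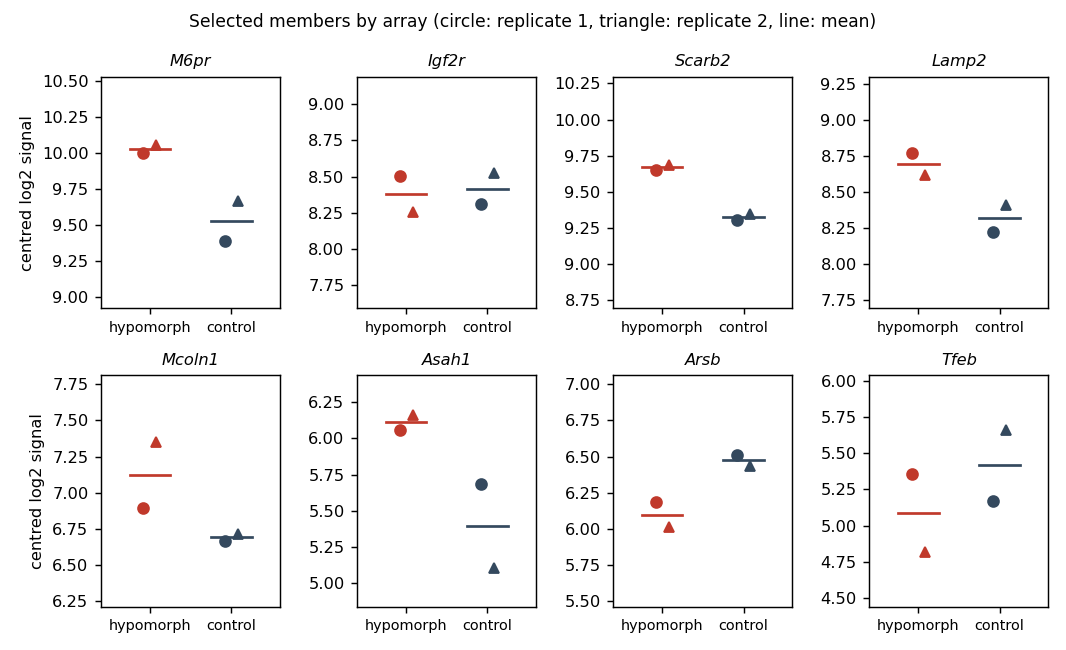
Centred log2 signal (vertical axis, 1.6 units in every panel) of 8 members on each array, with hypomorph arrays on the left and control arrays on the right; circles are replicate 1, triangles replicate 2 and lines group means. M6pr, Scarb2, Lamp2, Mcoln1 and Asah1 lie higher on both hypomorph arrays, as 51.7% of tested genes do. Arsb lies lower on both, as 4.93% do, and Igf2r and Tfeb overlap. No member passed an adjusted p of 0.05 in limma.

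Among lysosomal membrane proteins, 4 of 7 tested members lay above the median of the tested genes, and their median log2 change was 0.23. Scarb2, the receptor that escorts glucocerebrosidase to lysosomes, had levels of 9.65 and 9.68 in hypomorph thymocytes and 9.30 and 9.35 in control thymocytes. The groups did not overlap and the arrays of a group lay close together, with a log2 change of 0.34 ± 0.13 (unadjusted p 0.0209, adjusted p 0.268). Its other probe set was at 0.43 (unadjusted p 0.00686). Lamp2, an abundant membrane glycoprotein needed in mice for the maturation of autophagic vacuoles, had 8.77 and 8.62 in hypomorph thymocytes and 8.22 and 8.41 in control thymocytes. These groups did not overlap either (log2 change 0.37 ± 0.15, unadjusted p 0.0263, adjusted p 0.282), and its other probe sets were at 0.57, 0.19 and 0.27, the last pair with overlap. With arrays centred on the tested probe sets, limma put Scarb2 at 0.17 (unadjusted p 0.1525) and Lamp2 at 0.20 (unadjusted p 0.1518).

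Mcoln1, a calcium channel of the lysosomal membrane, had levels of 6.89 and 7.35 in hypomorph thymocytes and 6.67 and 6.71 in control thymocytes. Both hypomorph arrays were higher but differed from each other by more than the control arrays did (log2 change 0.43 ± 0.21, unadjusted p 0.0648, adjusted p 0.328). The log2 change was 0.20 without hypomorph replicate 2 and 0.66 without hypomorph replicate 1. Its other tested probe sets were at 0.98 (unadjusted p 0.0106) and 0.14, so the size of its change depended on the probe set. Lamp1, the companion of Lamp2, was at 0.23 ± 0.14 (adjusted p 0.411), at the array-wide median. Laptm5, a lysosomal protein of blood cells that in mice promotes degradation of the T cell receptor zeta chain, had levels of 11.82 and 12.09 in hypomorph thymocytes and 12.02 and 11.92 in control thymocytes. Its groups overlapped, with a log2 change of -0.01 ± 0.15 (adjusted p 0.968) and -0.0001 to 0.12 on its other tested probe sets. Laptm4a, a relative of broader expression, was at 0.17, and Cln3, whose loss causes a neuronal storage disease in humans, at 0.00.

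Enzymes and cofactors of glycolipid and sphingolipid breakdown included Asah1, which had the highest change of the members with all 4 arrays. It had levels of 6.06 and 6.16 in hypomorph thymocytes and 5.68 and 5.11 in control thymocytes. The groups did not overlap and the control arrays differed by 0.58, so the log2 change was 0.72 ± 0.29 (fold 1.65, 95% interval 1.06 to 2.55, unadjusted p 0.0297, adjusted p 0.284). Its log2 change was 0.43 without control replicate 2, below those of M6pr (0.64) and Gla (0.63) in that fit, and 1.01 without control replicate 1. Asah1 had a single probe set, and with all arrays 98.3% of tested genes had a lower change. With arrays centred on the tested probe sets, its fold was 1.458 (95% interval 0.9185 to 2.315, unadjusted p 0.098 in limma). Gla, the X-linked alpha-galactosidase, had 5.70 and 5.69 in hypomorph thymocytes and 5.06 and 5.21 in control thymocytes, without overlap (log2 change 0.55 ± 0.29, adjusted p 0.349).

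The rest of this class lay nearer to the array-wide median. Neu1, a sialidase, was at 0.33, Hexa, a subunit of beta-hexosaminidase, at 0.28, Smpd1, acid sphingomyelinase, at 0.23, Galc, galactosylceramidase, at 0.19 and Glb1, beta-galactosidase, at 0.09. Psap, the precursor of the saposins that present lipids to these enzymes, had 11.16 and 11.44 in hypomorph thymocytes and 11.03 and 11.13 in control thymocytes, a change of 0.22 ± 0.15 (adjusted p 0.449). Its groups did not overlap, although its change was within 0.01 of that of the median tested gene. Arsa, arylsulfatase A, had 7.42 and 7.67 in hypomorph thymocytes and 7.61 and 7.71 in control thymocytes, with overlap (log2 change -0.12 ± 0.17, adjusted p 0.740). In all, 6 of the 9 members of this class lay above the array-wide median.

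Glycosaminoglycan hydrolases ranged from -0.38 to 0.50, with 2 of 6 above the array-wide median. Arsb had levels of 6.18 and 6.01 in hypomorph thymocytes and 6.51 and 6.44 in control thymocytes. It had the lowest change of all 34 members, with both hypomorph arrays below both control arrays (log2 change -0.38 ± 0.22, adjusted p 0.403). Naglu, which removes N-acetylglucosamine from heparan sulfate, had 5.50 and 6.16 in hypomorph thymocytes and 5.34 and 5.32 in control thymocytes. Its groups did not overlap, but the distance between the hypomorph arrays exceeded the difference of the group means (log2 change 0.50 ± 0.31, adjusted p 0.416, and 0.17 without hypomorph replicate 2). Idua, alpha-iduronidase, was at 0.37 with overlap, while its other probe set was at 0.74 (unadjusted p 0.0379) without. Gusb, beta-glucuronidase, Sgsh, a sulfamidase, and Ids, iduronate sulfatase, were at 0.19, 0.09 and 0.03.

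Enzymes of glycogen, glycoprotein and protein breakdown lay below the array-wide median on their brightest probe sets, 4 of 4. So did the genes of cholesterol release, 3 of 3. Tpp1 and Lipa lay close to that median, and another probe set of each lay above it, at 0.22 and 0.30. Gaa, which digests glycogen, had levels of 6.60 and 6.78 in hypomorph thymocytes and 7.02 and 6.77 in control thymocytes (log2 change -0.20 ± 0.20, adjusted p 0.615). Its groups overlapped and its probe sets did not move alike, since the other one was at 0.32 (unadjusted p 0.258). Tpp1, a peptidase, Ppt1, a thioesterase, and Man2b1, an alpha-mannosidase, were at 0.16, 0.11 and 0.07. Npc2, a soluble cholesterol carrier, had 11.05 and 11.15 in hypomorph thymocytes and 10.94 and 11.08 in control thymocytes, with overlap (log2 change 0.09 ± 0.14, adjusted p 0.757). Lipa, acid lipase, had 10.31 and 10.46 in hypomorph thymocytes and 10.14 and 10.24 in control thymocytes, without overlap (log2 change 0.20 ± 0.13, adjusted p 0.455), and Npc1, the membrane partner of Npc2, was at 0.10. The 95% interval of the fold was 0.638 to 1.18 for Gaa and 0.864 to 1.31 for Npc2.

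**Figure D2:**
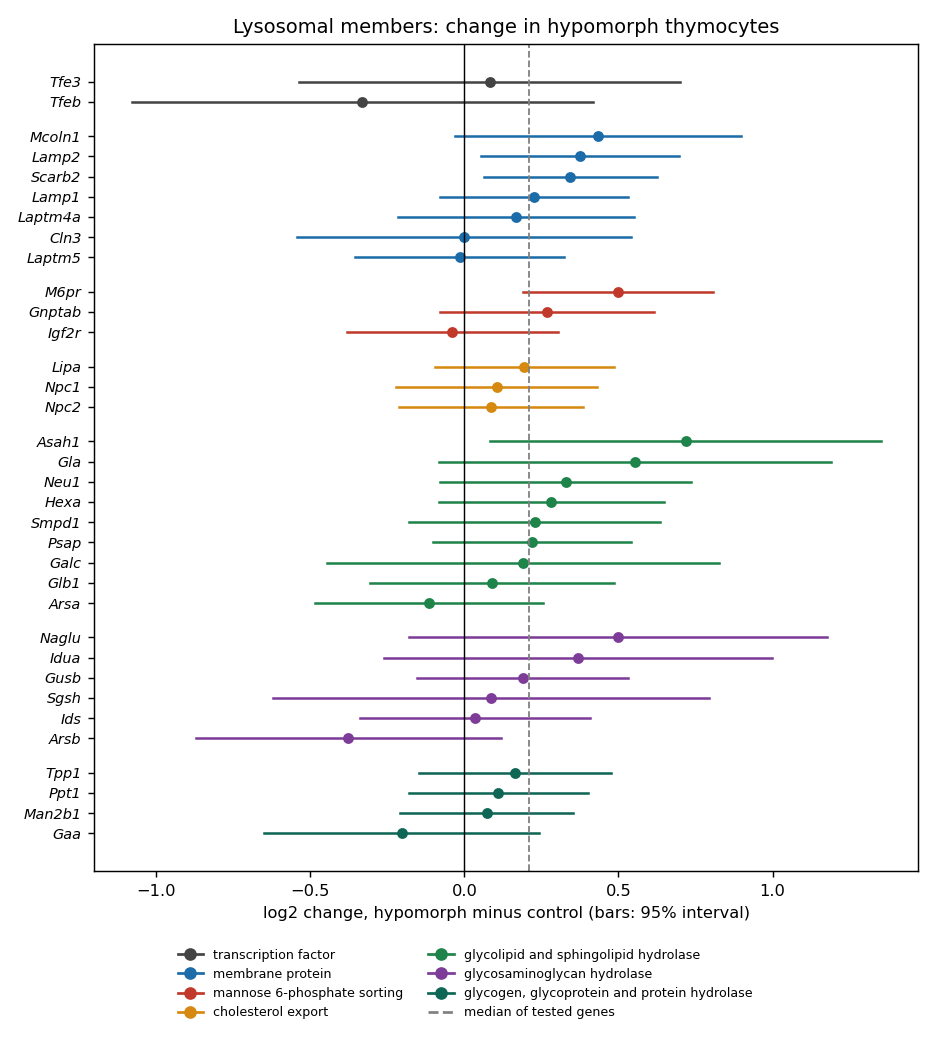
Log2 change, hypomorph minus control (horizontal axis), of the 34 tested members with 95% intervals from limma, grouped and coloured by role; the solid line is 0 and the dashed line the median of all tested genes, 0.21. Most intervals span the dashed line, and the points run from -0.38 for Arsb to 0.72 for Asah1.

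Counts over the members were read against the same counts over all tested genes. At an adjusted p under 0.05, limma called 0 of 34 members, where it called 0.0489% of tested genes. At an unadjusted p under 0.05, 4 members were higher (M6pr, Scarb2, Lamp2 and Asah1), or 11.8% of the members, and 18.3% of tested genes were higher. No member was lower at that p, where 0.909% of tested genes were. The hypomorph arrays were both above the control arrays for 18 members, where this held for 51.7% of tested genes, and both below for Arsb, where this held for 4.93%. These shares are near to or below the background and carry the shift common to the tested genes.

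With arrays centred on the tested probe sets, which takes most of that shift away (median change of tested genes 0.04), M6pr was the single member higher at an unadjusted p under 0.05 (log2 change 0.32, p 0.0233), where 4.38% of tested genes were. Arsb was the single member lower (-0.55, p 0.0334), where 2.69% of tested genes were. Quantile normalization left the same 2 members at that p, M6pr at 0.25 (p 0.0434, background 3.42%) and Arsb at -0.51 (p 0.0392, background 2.69%), and under neither scaling did a member pass adjustment, which 0.0293% of tested genes did with that centring and 0.0195% with quantile normalization. With that centring, groups did not overlap for 8 members on the higher side and 8 on the lower side, or 23.5% each, where 24.1% and 14.5% of tested genes did not. The higher ones were Asah1, Gla, Gnptab, Lamp2, M6pr, Mcoln1, Neu1 and Scarb2, and the lower ones Arsa, Arsb, Gaa, Igf2r, Man2b1, Npc1, Npc2 and Tfeb.

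**Figure D3:**
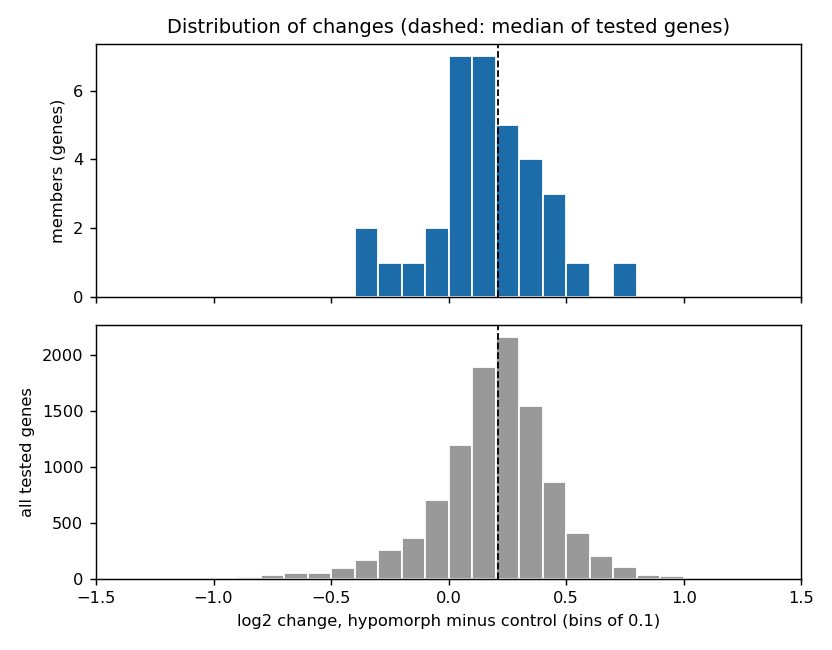
Number of genes (vertical axes) by log2 change, hypomorph minus control, in bins of 0.1, for the 34 tested members (top) and all 10232 tested genes (bottom, changes beyond 1.5 not shown); dashed lines mark the median of the tested genes. Both distributions centre near 0.2, and the members stay between -0.38 and 0.72.

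The precision of these values bounds the changes that could have been missed. With arrays centred on the tested probe sets, the 95% interval excluded a 2-fold change in either direction for 29 of 34 members, all but Gla, Tfeb, Arsb, Naglu and Asah1. It excluded a 1.5-fold change for 20 of them, among these Lamp1, Lamp2, Scarb2, Psap, Npc1, Npc2, Lipa, Tpp1, Ppt1 and Laptm5. The median spread between arrays of a group was 0.15 log2 units for the members and for all tested genes alike.

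Further probe sets of the members were compared with the brightest ones. Of 63 tested probe sets of the members, 8 were higher at an unadjusted p under 0.05, where 14.9% of all tested probe sets were: a pair each for Lamp2 and Scarb2, and 1 each for M6pr, Asah1, Mcoln1 and Idua. None passed an adjusted p of 0.05, where 0.0622% of all tested probe sets did. Of 29 further probe sets in 19 genes, 21 lay on the same side of the array-wide median as the gene's brightest one. Those of M6pr, Scarb2 and Laptm5 lay on the same side throughout, and those of Lamp2, Mcoln1, Gnptab, Gaa, Lipa, Tpp1 and Smpd1 did not.

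**Figure D4:**
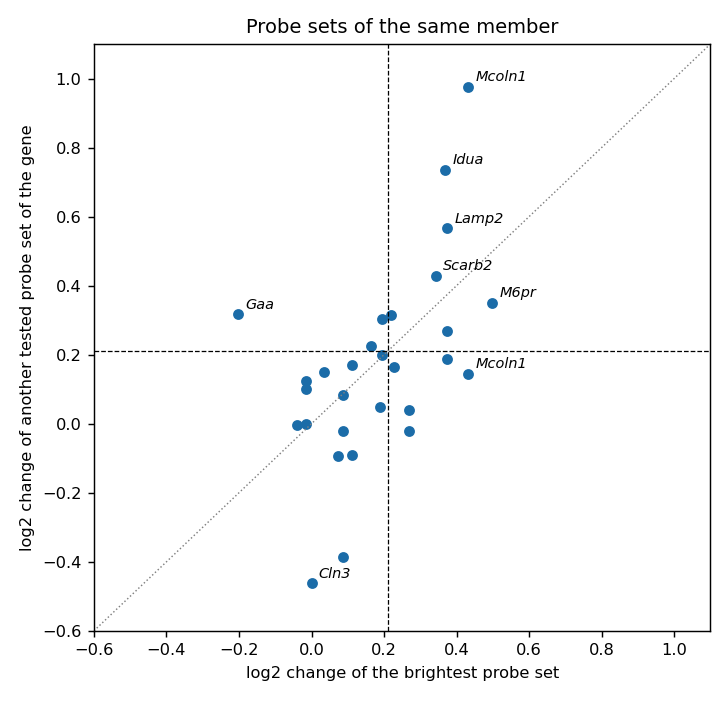
Log2 change, hypomorph minus control, of the brightest probe set (horizontal axis) and of another tested probe set of the same gene (vertical axis), 29 points in 19 genes; dashed lines mark the median of the tested genes and the dotted line equality. Points of M6pr and Scarb2 lie above and to the right of both dashed lines, and the Gaa point lies in the upper left, at -0.20 and 0.32.

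A wider list of 77 lysosomal genes outside the members, such as further hydrolases, transporters, ion channels, vesicle tethering and nutrient sensing proteins, had 68 tested genes. None passed the adjusted threshold in limma, 7 (10.3%) were higher and 0 lower at an unadjusted p under 0.05, where 18.3% and 0.909% of all tested genes were. With arrays centred on the tested probe sets, 4 were higher and 2 lower (Slc11a2 and Smpdl3a), where 4.38% and 2.69% of tested genes were. Quantile normalization left 3 higher and 2 lower, where 3.42% and 2.69% of tested genes were. The median log2 change of the list was 0.17, or 0.04 below the tested genes. The highest were Clcn6, a chloride and proton exchanger, at 0.80 ± 0.24 (adjusted p 0.242), Cln6, a protein of the endoplasmic reticulum needed for enzyme export, at 0.76 ± 0.18 (adjusted p 0.196), and Mcoln3, a relative of Mcoln1, at 0.74 ± 0.24 (adjusted p 0.247). Cln6 had levels of 7.37 and 7.46 in hypomorph thymocytes and 6.57 and 6.73 in control thymocytes, without overlap. The lowest were Slc11a2, an iron transporter, at -0.43, Gnptg, the other subunit of the tagging enzyme, at -0.39, and Dnase2a, a nuclease, at -0.36. Without hypomorph replicate 1, in a fit with a single hypomorph array, the log2 change of Mcoln3 was 1.16.

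Phagocytes are rich in lysosomes, so their markers are given beside these values. Of 10 tested macrophage markers, 9 lay below the array-wide median, with a median log2 change of -0.29 and summed signals of 1010 and 860 in hypomorph thymocytes, against 1040 and 1180 in control thymocytes (15 genes). Of 10 tested dendritic cell markers, 9 lay below it, with sums of 4440 and 4670 in hypomorph thymocytes, against 5270 and 4990 in control thymocytes (13 genes). B cell markers summed to 500 and 499 in hypomorph thymocytes, against 617 and 759 in control thymocytes, and 5 of 6 tested lay below the median. Granulocyte markers varied between animals, at 2320 and 3880 in hypomorph thymocytes, against 711 and 6050 in control thymocytes. Of 8 tested, 6 lay above the array-wide median, with a median log2 change of 0.49. Sums for erythroid markers were 216 and 277 in hypomorph thymocytes, against 184 and 211 in control thymocytes, and those for thymic epithelium and stroma were 307 and 307 in hypomorph thymocytes, against 338 and 305 in control thymocytes. Above the array-wide median lay 2 of 2 tested erythroid markers and 1 of 3 tested markers of thymic epithelium and stroma. No listed marker was below a signal of 8.44 on all 4 arrays. However, Marco (macrophage) ran down to 0.80 and Alas2 (erythroid) to 0.99, with highest signals of 14.29 and 10.15. No tested marker was called, where 0.0489% of tested genes were, but only 2 of 7 erythroid markers and 3 of 10 of thymic epithelium and stroma were tested. At an unadjusted p under 0.05 in limma, 1 of 10 macrophage, 2 of 10 dendritic cell and 2 of 6 B cell markers were lower. That held for 0.909% of tested genes. Higher at that p were 1 of 2 erythroid and 1 of 11 double-positive thymocyte markers, where 18.3% of tested genes were. The part of these cells in the members' values was not tested, and in unsorted cells fewer cells of a type and less RNA per cell cannot be told apart.

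The members also shared no position near the targeted gene. None of the 36 lies on chromosome 1, which carries Atg16l1. The X-linked ones, Gla, Lamp2, Ids and Tfe3, had log2 changes of 0.03 to 0.55 with a median of 0.23, against 0.18 for the 30 autosomal members. As sex is not assigned to arrays, its part in the X-linked values was not tested.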

How the data were processed

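RNA of 4 animals was hybridised to 1 array each. Per the submitters' processing notes the authors used GCOS, Affymetrix's software, and what was deposited is 1 signal intensity per probe set, on a linear scale; version and scaling target are not given. Control probe sets (64 of 45101) were left out, and a gene was named only from the 34945 probe sets with 1 symbol in the platform annotation, updated through gene IDs. The analysis took log2(signal + 2.29), where 2.29 is the 10th percentile of signals, so folds understate the change of dim genes. Array medians spanned 0.66 log2 units and were brought to a common value. The 22519 probe sets at or above the median mean level were tested with limma 3.58.1 in R 4.3.3 (eBayes with a variance trend, two-sided, no covariates) and adjusted over all of them by Benjamini-Hochberg at 0.05. In 20 simulations, 200 of 22519 probe sets were changed. The comparison found 3.65% of changes of 1.5-fold, 39.3% of 2-fold and 87.0% of 4-fold ones. False calls made up 4.34% of all calls. Whether these rates hold for the real arrays, where tested genes stood 0.21 higher in the hypomorph group, was not tested. Having 2 arrays per group limits the precision, and p-values rest on the variance model. Same-numbered arrays deviated with a correlation of 0.08, so numbers were not taken as pairs. Members and lists were chosen with earlier results of these data known. Per-array levels are given for Tfeb, Tfe3 and Mitf, the 5 highest and 5 lowest changes, the 5 smallest p and the 4 brightest members; of the wider list, the 3 highest and 3 lowest changes are named. Alternatives varied pseudocount, filter, scaling, variance trend, replicate block, left-out arrays and probe set choice, and those for the wider list were added after seeing the data.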

Additional observations from a re-analysis of the deposited data

How the results depend on the processing

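No member passed the adjusted threshold in limma under any of the 14 alternatives, with the lowest adjusted p of a member between 0.114 and 0.719. The members' median change relative to the tested genes, -0.03 with all arrays, was 0.016 without the filter on low levels, -0.0693 with the stricter filter, at the 75th percentile of mean levels, -0.0525 with quantile normalization, -0.0763 with each gene's probe sets averaged (29 members tested), and -0.0407 to -0.0168 over the fits that leave out 1 array. With the replicate number as a block it was -0.0332, a value that a block in this balanced design cannot move. The block changed no call of a member. For Atg16l1 the adjusted p was 0.0596 without the filter, 0.114 without centring, 0.274 without the variance trend, 0.423 with averaged probe sets (log2 change -0.57) and 0.000107 to 0.0893 when 1 array was left out. The count of called genes in the wider list was 0 to 1 when 1 array was left out. Of 458 changes of single members relative to the tested genes, 425 kept their direction and 33 did not, none of them a called value. Without centring, with centring on the tested probe sets, without the variance trend and with the block, these relative changes cannot move. Their direction was therefore fixed in advance under those settings. Lipa was at 0.0004 with the pseudocount at the 25th percentile and at 0.0447 without the filter, where Gusb was at 0.0394, Tpp1 at 0.0139, Galc at 0.04 and Laptm4a at 0.016. With the stricter filter Lamp1 was at -0.0097, Psap at -0.016 and Smpd1 at -0.007. With quantile normalization Lamp1 was at -0.0523, Sgsh at 0.0315 and Galc at 0.0824, and with averaged probe sets Neu1 was at -0.084, Lipa at 0.0371 and Gnptab at -0.0996. Leaving out 1 array gave ranges of -0.0497 to 0.0723 for Lamp1, -0.261 to 0.0193 for Glb1, -0.0438 to 0.0014 for Gusb, -0.041 to 0.183 for Hexa, -0.09 to 0.0998 for Psap, -0.519 to 0.262 for Tfe3, -0.372 to 0.687 for Idua, -0.0062 to 0.575 for Naglu, -0.268 to 0.0218 for Sgsh, -0.095 to 0.131 for Smpd1, -0.14 to 0.0392 for Tpp1, -0.0492 to 0.0098 for Lipa, -0.324 to 0.283 for Galc and -0.265 to 0.176 for Laptm4a. The cause was not tested.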
